A study of Mus musculus with 36 samples.

Results

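The cerebral cortex of Dicer conditional knockout (cKO) mice was compared with that of control mice 8 weeks after treatment, across all genes measured on 6 of the 36 arrays of the series: 3 cKO and 3 control arrays, taken by their labels, each from a separate animal. All 6 mice carried the Camk2a-CreERT2 transgene and 2 floxed copies of Dicer1 (Cre+/Dicer lox/lox) on a C57BL/6J background. The cKO mice received tamoxifen by injection over 5 days at an age of 8 weeks, 10 mg in total. The control mice received the sunflower oil and ethanol vehicle, so that the deletion and the tamoxifen itself cannot be told apart. The Camk2a promoter drives the tamoxifen-activated Cre mainly in excitatory neurons of the forebrain, so glia, vessels, interneurons and neurons that escaped recombination keep Dicer1 in the tissue. According to the study, mice at this time were losing the weight they had gained earlier.

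Dicer is the RNase that cuts hairpin precursors into mature microRNAs (miRNAs). A mature miRNA sits in an Argonaute protein and guides it, through a short seed at its 5′ end, to messenger RNAs that are then repressed and degraded. Loss of Dicer removes new miRNAs of all families from a cell, while the long host transcripts that carry the hairpins are still made. In cortical neurons the let-7, miR-9 and miR-124 families are among the abundant ones, and they are known to hold down genes of other cell types and of earlier stages of development.

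The arrays measured long RNAs and not mature miRNAs, but 9 host transcripts were tested, and RefSeq places hairpins inside 7 of them. The sequences below are of miRNAs whose host transcript was measured here. They are shown because the seed, bases 2 to 8 in capitals, is the part lost from the cell together with the rest of the mature miRNA when Dicer is missing. They are taken from RefSeq on GRCm38.p6 and read 5′ to 3′.
miR-9-5p: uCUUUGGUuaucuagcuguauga
let-7b-5p: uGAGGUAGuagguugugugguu
let-7c-5p: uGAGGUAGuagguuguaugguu
miR-15a-5p: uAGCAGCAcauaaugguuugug
miR-16-5p: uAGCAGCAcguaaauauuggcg
miR-22-3p: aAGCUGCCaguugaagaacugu
The miR-9-5p copy lies at chr7:79505279-79505301 on the plus strand, inside Mir9-3hg. The let-7b-5p and let-7c-5p copies, with 1 shared seed, lie at chr15:85707325-85707346 and chr15:85706616-85706637 on the plus strand, inside Lncppara. The miR-15a-5p and miR-16-5p copies share another seed and lie at chr14:61632075-61632096 and chr14:61631936-61631957 on the minus strand, inside Dleu2. The miR-22-3p copy lies at chr11:75463772-75463793 on the plus strand, inside Mir22hg.

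Values are log2 signals after RMA, so a difference of 1 is a factor of 2, and each difference is cKO minus control. The 6 arrays carried the marks of cortex: Slc17a7, the vesicular glutamate transporter of cortical neurons, stood at 9.19 to 9.51 against 4.52 to 4.61 in the hypothalamus of the same mice, and Pmch, a hypothalamic peptide gene, at 4.54 to 5.12 against 13.3 to 13.5, with tissues normalized apart. Of the 6 arrays, 2 stood apart from the rest. For cKO replicate 2, 170 genes lay over 1 log2 unit from the median of the other 5 arrays, and for control replicate 3 the number was 243, against 4 to 19 for the other 4 arrays. The 3′ minus 5′ signal of actin control probes, a sign of RNA quality, averaged 1.27 in cKO and 1.40 in control mice (two-sided exact permutation test p = 0.2, where 3 against 3 cannot go below 0.1). That of the Gapdh control probes averaged 0.0582 and 0.0429 (p = 0.8 in the same exact test).

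No gene differed between cKO and control cortex at 8 weeks at a false discovery rate of 15%: limma called 0 of 14722 genes (0%), and the lowest adjusted p was 0.869. At an unadjusted p under 0.05 there were 698 genes (4.74%), of which 431 were higher (2.93%) and 267 lower (1.81%) in cKO mice. With each array centred on its median the split turned to 1.92% higher and 3.27% lower. A Student t-test on the 6 arrays, the other test run, also called 0 genes, with 551 higher and 432 lower at an unadjusted p under 0.05. A fit that weighted each array by how well it followed the others called 49 genes higher and 58 lower, and of the other alternatives run none called more than 1. The median difference over all genes was 0.02, the 5th and 95th percentiles were -0.31 and 0.40, and the median standard error was 0.14. In 1472 genes all 3 cKO arrays lay above all 3 control arrays (10%), and in 1098 all 3 lay below (7.46%), a balance that turned to 7.50% above and 12% below after centring. The mean was higher in cKO mice for 55.3% of genes.

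The targeted gene itself gave no lower signal. Dicer1 read 6.21, 6.49 and 6.25 in the cKO and 6.33, 5.93 and 5.70 in the control arrays. The groups overlapped through control replicate 1, and the difference was 0.33 ± 0.20 (SE). A second Dicer1 probe set differed by 0.05. The sources used here do not give whether either probe set lies in the excised exon, so these values do not check the deletion. Camk2a, whose promoter drives the Cre, is itself a kinase of synaptic plasticity and differed by -0.19 ± 0.19, with its 6 probe sets between -0.19 and 0.11.

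Among genes whose groups did not overlap, the 12 higher genes with the lowest p-values spanned differences of 0.38 to 0.83. Clcn5, a chloride and proton exchanger of endosomes, read 7.48, 7.47 and 6.88 in cKO against 6.60, 6.46 and 6.30 in control mice. The lowest cKO array stood above the highest control array, and the difference was 0.83 ± 0.15 (limma, unadjusted p = 0.000185, adjusted p = 0.869). Without cKO replicate 3 it was the 1 gene called. Its other probe set differed by 0.32.

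Twsg1, a secreted protein that binds BMPs, read 7.96, 7.75 and 7.58 in cKO against 7.31, 7.12 and 7.11 in control mice, a difference of 0.58 ± 0.12. Tgfbr3, the co-receptor betaglycan, read 8.16, 8.23 and 7.71 against 7.40, 7.49 and 7.45, a difference of 0.59 ± 0.13. In both genes cKO replicate 3 was the cKO array nearest to the controls. That held in 11 of the 12 genes, with Ripor2 (0.38 ± 0.10, other probe sets -0.09 to 0.02) as the exception. Nr2e1, an orphan nuclear receptor of neural stem cells also called Tlx, read 4.43, 4.51 and 4.31 against 3.72, 3.43 and 3.70. Its difference was 0.80 ± 0.19 on a dim probe set, while its brighter probe set differed by 0.02. On the dim set only the cKO arrays of 8 weeks lay above 4.3, the filter on low values.

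The other higher genes had other roles. Slc1a3, the glutamate transporter of astrocytes, differed by 0.48 ± 0.13, and Sh3gl2, the endophilin of synaptic vesicle recycling, by 0.42 ± 0.10. Other probe sets of Slc1a3 differed by 0.00 to 0.16, and those of Sh3gl2 by -0.01 and 0.00. Pck2, the mitochondrial phosphoenolpyruvate carboxykinase, differed by 0.58 ± 0.15, and Psme4, a proteasome activator, by 0.54 ± 0.15. The other probe set of Pck2 differed by 0.36, while those of Psme4 ran from -0.13 to 0.09. Rab3d, a small GTPase of secretory vesicles (0.62 ± 0.17), Mfsd1, a lysosomal transporter (0.54 ± 0.14), and Tmcc3 (0.47 ± 0.12) completed the 12. Their other probe sets differed by 0.07 and 0.31 in Rab3d, 0.04 and 0.31 in Mfsd1, and -0.20 to 0.17 in Tmcc3. At 4 weeks, in other mice, 10 of the 12 were also higher in cKO cortex, where 67.3% of all genes were, and in the hippocampus at 8 weeks, again in other mice, 9 of the 12 were, where 45% of all genes were.

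The 12 lower genes spanned -0.75 to -0.33, and many had dim signals. The cKO means of Shbg, Creb5, Fars2, Gm32960 and Acy3 lay under 4.3, the filter on low values, and their control means above it. Shbg, a binding protein of sex steroids, read 4.13, 4.03 and 4.14 in cKO against 4.48, 4.49 and 4.81 in control mice, a difference of -0.50 ± 0.11 (limma, unadjusted p = 0.000814). Zfp367, a zinc finger factor, was brighter and read 7.22, 6.84 and 7.42 against 7.87, 7.91 and 7.66, a difference of -0.66 ± 0.18. The groups lay apart in both genes, by the choice of these genes. Mreg, melanoregulin of vesicle transport, read 5.45, 5.37 and 5.63 against 5.86, 5.85 and 5.99, a difference of -0.42 ± 0.10.

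Further lower genes were Creb5, a factor of the CREB family (-0.52 ± 0.13), and Acy3, an aminoacylase (-0.46 ± 0.11). Lrrc6, needed to assemble the dynein arms of cilia, differed by -0.45 ± 0.11. Ciapin1, a factor of iron-sulphur cluster assembly, differed by -0.40 ± 0.11, and its other probe sets by -0.04 to 0.18. Fars2, the phenylalanine-tRNA synthetase of mitochondria, had the widest difference at -0.75 ± 0.21, but its other probe set differed by 0.20. The zinc finger genes Zfp180 (-0.53 ± 0.15) and Zfp560 (-0.33 ± 0.09), the T cell receptor segment Trbv1 (-0.68 ± 0.18) and Gm32960 (-0.38 ± 0.11) made up the rest. Of the 12, 6 were lower at 4 weeks too, where 67.3% of all genes were higher. For a difference between the time points 9 had an unadjusted p under 0.05, where 12.3% of all genes did. That test contains the 8-week difference by which the 12 were chosen, so the 9 are not separate evidence. The fit that weighted arrays, run on the same data that chose these genes, called 8 of the 12 higher and 8 of the 12 lower genes.

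**Figure D1:**
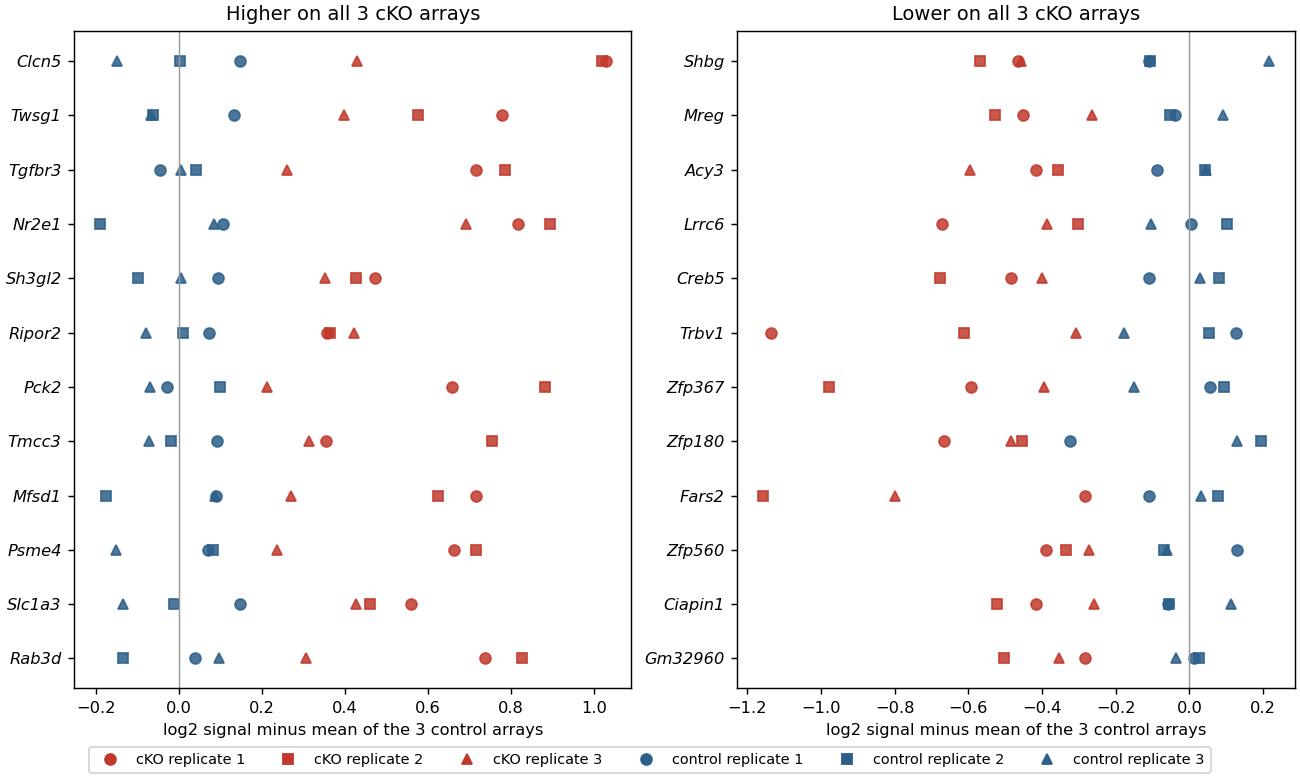
Signal on each of the 6 arrays for the 12 higher genes (left) and the 12 lower genes (right) with the lowest p-values among genes whose groups do not overlap; the horizontal axis is the log2 signal minus the mean of the 3 control arrays, red marks are cKO and blue marks control arrays, and the marker shape gives the replicate. On the left, cKO replicate 3 (red triangles) is the cKO array nearest to the controls in 11 of the 12 genes.

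The largest differences among genes whose groups did not overlap came with the 2 arrays that stood apart. Among the 5 largest higher differences of that kind, A830010M20Rik read 7.80, 7.78 and 7.43 in cKO against 7.02, 6.63 and 5.0 in control mice, a difference of 1.45 ± 0.76. Nell2, a secreted neuronal glycoprotein, differed by 1.39 ± 0.56 and R3hdm1 by 1.36 ± 0.59. Scaf11, a splicing-related factor, differed by 1.26 ± 0.52 and Atrx, a chromatin remodeller, by 1.25 ± 0.76. Other probe sets differed by at most 0.05 in A830010M20Rik, 0.11 in Nell2 and 0.11 in Scaf11. Those of R3hdm1 ran from -0.04 to 0.39 and those of Atrx from -0.23 to 1.23. Control replicate 3 was the lowest array in all 5, and all 5 had the opposite sign at 4 weeks. Without control replicate 3 the difference of A830010M20Rik was 0.84.

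Among the 5 largest lower differences of genes whose groups did not overlap, Slc25a5, the mitochondrial ADP and ATP carrier, read 6.69, 4.85 and 6.52 in cKO against 6.91, 7.03 and 7.37 in control mice, a difference of -1.08 ± 0.56. In all 5, cKO replicate 2 was the lowest array. Without it the difference of Slc25a5 was -0.50, that of Lrrtm3, a synaptic adhesion protein, went from -1.09 ± 0.42 to -0.61, and that of Ldb2, a LIM domain binding cofactor, from -1.08 ± 0.41 to -0.67. Araf, a kinase of the RAF family, differed by -1.04 ± 0.55 and Snhg14, a noncoding RNA that hosts small nucleolar RNAs, by -0.92 ± 0.56. Other probe sets ran from -0.70 to 0.15 in Slc25a5, from -0.25 to 0.16 in Araf and from -0.11 to -0.02 in Lrrtm3. Those of Ldb2 differed by -0.50 and 0.18.

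Of the 17 genes of the miRNA machinery, 3 were higher at an unadjusted p under 0.05 and 0 lower, where 2.93% and 1.81% of all genes were, with a median difference of 0.05 that turned to just below zero after centring. All 3 act downstream of Dicer in repression. Ago2, the Argonaute that slices, read 7.59, 7.48 and 7.18 in cKO against 6.87, 7.03 and 6.54 in control mice, a difference of 0.60 ± 0.26 that at 4 weeks was -0.58. Tnrc6b and Tnrc6c, scaffold proteins that bind Argonaute, differed by 0.72 ± 0.26 and 0.47 ± 0.16. Probe sets ran from 0.09 to 0.60 in Ago2, from 0.19 to 0.72 in Tnrc6b and from 0.07 to 0.47 in Tnrc6c. The cKO arrays of all 3 genes lay above the controls, and Tnrc6c alone kept an unadjusted p under 0.05 without control replicate 3 (0.046) and without cKO replicate 2 (0.033). Drosha and Dgcr8, which cut the hairpin in the nucleus, differed by -0.13 ± 0.15 and 0.02 ± 0.14. Ran, the GTPase of nuclear export, read 9.27, 7.97 and 9.02 against 9.38, 9.51 and 9.70, with cKO replicate 2 far below the rest.

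Of the 9 host transcripts, 8 had a higher mean in cKO mice, where 55.3% of all genes did, and 0 passed an unadjusted p of 0.05. The median difference was 0.19. The exception was Mir9-3hg, host of the miR-9-5p shown above, at 7.46, 7.50 and 7.51 in cKO against 7.69, 7.68 and 7.65 in control mice. The groups lay apart by little, with a difference of -0.19 ± 0.11. Mir124a-1hg, a host of miR-124, read 9.13, 9.18 and 9.03 against 8.97, 8.85 and 8.94, a difference of 0.19 ± 0.12. Meg3, Rian and Mirg belong to 1 imprinted region on chromosome 12 and differed by 0.72 ± 0.40, 0.63 ± 0.44 and 0.23 ± 0.16. Control replicate 3 was the lowest array in all 3 genes. Dleu2, host of miR-15a and miR-16, differed by 0.14 ± 0.15, and Lncppara, host of let-7b and let-7c, by 0.21 ± 0.16.

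Of 22 tested genes known from earlier work as targets of neuronal or let-7 family miRNAs, 17 had a higher mean in cKO mice, 2 were higher at an unadjusted p under 0.05, Nr2e1 and Bcl2l11, and 0 lower. Over all genes 55.3% had a higher mean and 2.93% were higher at that p. Groups lay apart upward in 7 and downward in 0, where 10% and 7.46% of all genes did, and the median difference of 0.14 was 0.09 after centring. The median deviation of the list from the mean of the 6 arrays was 0.07, 0.16 and 0.02 in the cKO and -0.12, -0.05 and -0.13 in the control arrays. Every cKO array stood above every control array by this measure, and cKO replicate 3 by the least. The same held for the host transcripts and for lists that are not about miRNAs: clock, AMPA receptor and plasticity, fatty acid and splicing-related genes. Bcl2l11, the pro-apoptotic protein Bim, read 5.94, 6.21 and 5.65 against 5.49, 5.33 and 5.30, a difference of 0.56 ± 0.18. Ctdsp2, a phosphatase that works with the neuronal gene repressor REST, read 9.06, 9.21 and 8.79 against 8.69, 8.68 and 8.75, a difference of 0.32 ± 0.15. Ptbp1, the splicing repressor that miR-124 holds down in neurons, differed by 0.13 ± 0.12. At 4 weeks the median of the same list was -0.06.

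Markers of excitatory neurons, the cells in which the Cre is active, were split: 12 of 22 higher, 10 lower, a median of 0.05 that was -0.01 after centring and -0.04 without control replicate 3. Tbr1, a transcription factor of deep-layer neurons, was the 1 member at an unadjusted p under 0.05. It read 7.67, 7.32 and 7.58 in cKO against 7.88, 8.19 and 8.34 in control mice, all below the controls, with a difference of -0.62 ± 0.19. At 4 weeks it differed by -0.88 and was called (limma, adjusted p = 0.094). Of the 22 markers, 3 lay apart upward and 1 downward, where 10% and 7.46% of all genes did. Other members went up: probe sets of Rorb ran from 0.09 to 0.68 and those of Bcl11b from 0.06 to 0.46. In bulk cortex fewer cells of a type and less RNA per cell cannot be told apart. Slc17a7 differed by -0.12 ± 0.10. Of 20 interneuron genes 0 passed an unadjusted p of 0.05, and Gad2, an enzyme of GABA synthesis, differed by 0.92 on 1 probe set and -0.10 on the other.

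Of 31 genes of the AMPA receptor and plasticity, 19 had a higher mean in cKO mice, where 55.3% of all genes did. Of the 31, 6 lay apart upward and 1 downward, where 10% and 7.46% of all genes did. Among the 31, 1 was higher and 1 lower at an unadjusted p under 0.05 (2.93% and 1.81% of all genes). The median of 0.05 turned to just below zero after centring and to -0.01 without control replicate 3. Homer1, a scaffold of the postsynaptic density, read 8.23, 8.80 and 9.70 in cKO against 9.59, 9.92 and 9.86 in control mice. Replicate 3 of the cKO mice lay within the controls, and the 5 Homer1 probe sets ran from -0.88 to 0.33. Shank3, another scaffold, differed by 0.28 ± 0.12. Of 23 genes of vesicle release, 15 had a higher mean, and 4 lay apart upward and 1 downward. At an unadjusted p under 0.05, 3 were higher and 0 lower. Over all genes these shares were 55.3%, 10%, 7.46%, 2.93% and 1.81%. The median of the 23 was 0.03 (-0.02 after centring, -0.01 without cKO replicate 2). Without control replicate 3, 0 of the 23 remained higher at that p. Syt1, the calcium sensor of release, read 9.68, 9.57 and 8.92 against 8.81, 8.36 and 7.69, a difference of 1.10 ± 0.46, and Syn2, a synapsin, differed by 0.86 ± 0.32. Pclo, a scaffold of the active zone, differed by 0.45 ± 0.19. Probe sets ran from 0.04 to 1.10 in Syt1, from -0.06 to 0.86 in Syn2 and from -0.01 to 0.45 in Pclo. Syt1 and Syn2 were lowest in control replicate 3 and had the opposite sign at 4 weeks, at -0.95 and -0.64.

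Genes induced by neuronal activity were lowest in replicate 1 of both groups. Deviations of the list had medians of -0.15, 0.16 and 0.20 on the cKO arrays and -0.16, 0.15 and -0.04 on those of controls, and its median difference of 0.10 was -0.05 with the actin 3′ minus 5′ signal as a covariate. Fos, an immediate early gene, read 8.56, 9.17 and 9.66 in cKO against 8.11, 9.58 and 9.24 in control mice, a difference of 0.15 ± 0.38. Of the 35 genes, 1 was higher and 1 lower at an unadjusted p under 0.05 (2.93% and 1.81% of all genes). Egr3, an early growth response factor, read 9.15, 8.71 and 9.65 against 9.78, 10.11 and 10.08, with all cKO arrays below the controls, and differed by -0.82 ± 0.30 (other probe set -0.01). Nr4a2, a nuclear receptor of the same early response, differed by 0.61 ± 0.27, with its 5 probe sets between -0.37 and 0.61. The cAMP response motif TGACGTCA, searched on both strands, was in 549 of 27025 RefSeq promoters (2.03%) and in 2 of the 26 activity genes matched, Btg2 and Dusp1.

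Astrocyte markers included 4 higher and 0 lower of 23 at an unadjusted p under 0.05, where 2.93% and 1.81% of all genes were, and 2 higher without control replicate 3. Their median was 0.12 (0.06 after centring). Besides Slc1a3, Aqp4, the water channel of astrocyte endfeet, read 7.12, 6.91 and 6.59 in cKO against 6.30, 6.25 and 6.06 in control mice, a difference of 0.67 ± 0.25. Its groups lay apart, while its brighter probe set differed by 0.11. Gfap, the intermediate filament that astrocytes make more of when reactive, read 8.23, 7.78 and 7.53 against 7.25, 7.29 and 7.57, a difference of 0.48 ± 0.18. Here cKO replicate 3 lay within the controls, and the 3 Gfap probe sets differed by 0.35 to 0.48. Slc4a4, a bicarbonate transporter, differed by 0.51 ± 0.21. Of 22 reactive astrocyte genes 10 had a higher and 12 a lower mean, with 2 higher at an unadjusted p under 0.05, Gfap and Tm4sf1 (0.36 ± 0.16), 0 lower and a median of -0.03.

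Microglia, the resident macrophages, gave small differences in the cortex. Of 24 markers, 2 were higher and 1 lower at an unadjusted p under 0.05, where 2.93% and 1.81% of all genes were. The median was 0.08 (0.02 after centring). The lower one, Sall1, differed by -0.37 (other probe set -0.03). Tyrobp, a signalling adaptor, read 9.42, 9.53 and 8.97 in cKO against 9.04, 8.82 and 8.85 in control mice, a difference of 0.40 ± 0.16. Ly86, a partner of a Toll-like receptor protein, differed by 0.36 ± 0.13, and Ccl6, a chemokine from the list of activated microglia, read 6.43, 6.41 and 5.61 against 5.40, 5.69 and 5.64. In Tyrobp and Ccl6 cKO replicate 3 lay within the controls and the other 2 cKO arrays above them. Tmem119 and P2ry12, markers of resting microglia, differed by -0.04 ± 0.13 and -0.05 ± 0.12. Of 30 interferon and antigen presentation genes 0 passed an unadjusted p of 0.05, and the median was 0.05 (just below zero after centring, -0.01 after quantile normalization).

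Genes of tissue next to the cortex also differed between arrays, and their part in the other results was not tested. Ttr, the transthyretin that choroid plexus secretes, had the largest difference of any gene named here. It read 10.85, 11.59 and 10.19 in cKO against 6.63, 7.54 and 10.53 in control mice, so the groups overlapped through control replicate 3, and the difference was 2.65 ± 1.21. The mean of all 10 choroid plexus genes tested was higher in cKO mice, with a median of 0.40 and 1 gene, Ttr, at an unadjusted p under 0.05; with the actin 3′ minus 5′ signal as a covariate the median was 0.11, and without cKO replicate 2 it was 0.25. Striatal markers went the other way, with 10 of 11 lower and a median of -0.22. Their median deviation was 0.46 in control replicate 3 and -0.34 in cKO replicate 1, and without control replicate 3 the median difference was -0.04. Of 36 genes of the leptomeninges, the membranes over the cortex, 33 had a higher mean, where 55.3% of all genes did. Of the 36, 2 were higher at an unadjusted p under 0.05, where 2.93% of all genes were. The median was 0.17 (0.08 without cKO replicate 2, -0.02 with the actin covariate) against 0.70 at 4 weeks. Ogn, a matrix proteoglycan, read 5.76, 5.63 and 5.44 against 5.10, 5.08 and 5.14, apart on all arrays, with a difference of 0.50 ± 0.16.

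**Figure D2:**
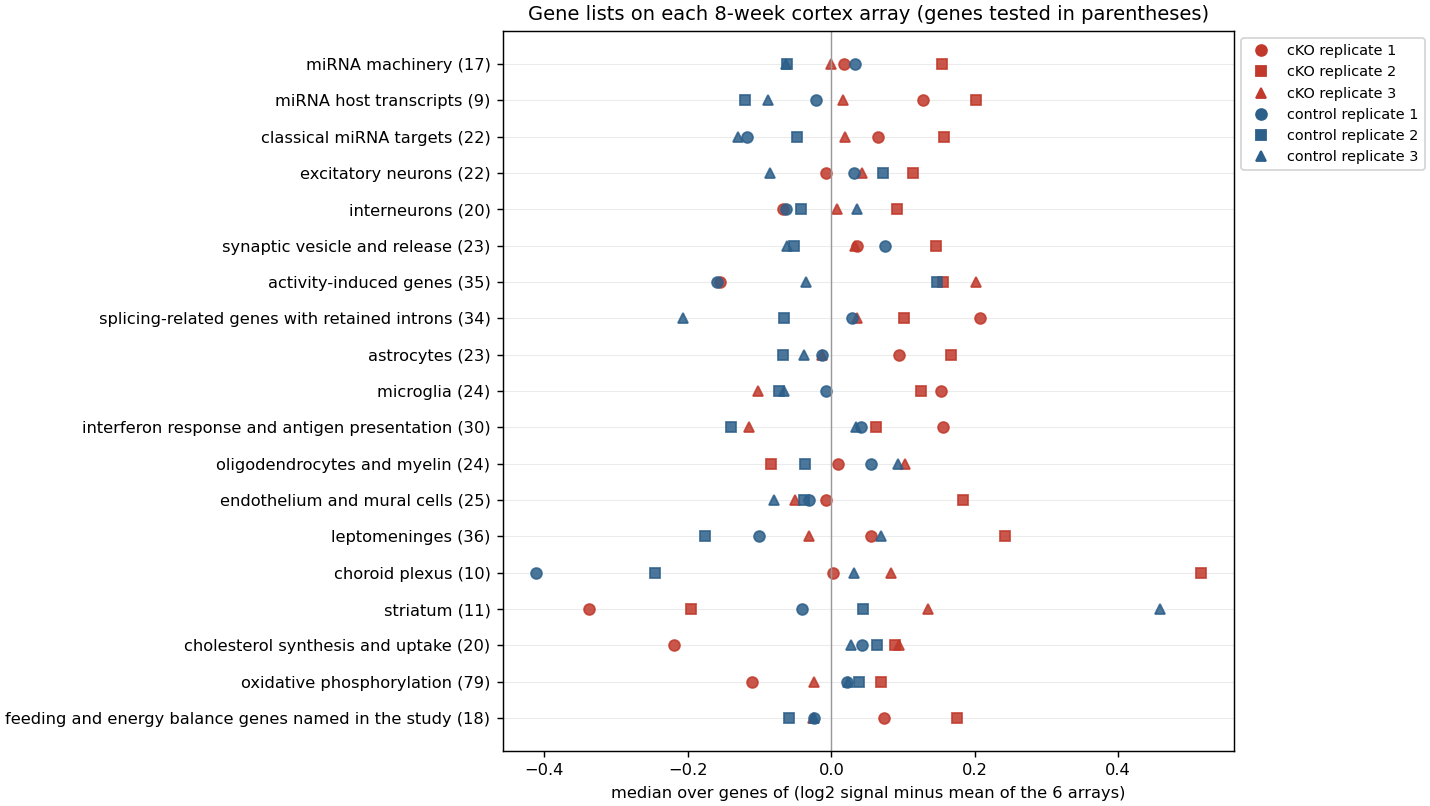
Median over the genes of each list of the log2 signal minus that gene's mean over the 6 arrays (horizontal axis), 1 row per list with the number of genes tested, red marks for cKO and blue marks for control arrays, and the marker shape for the replicate. The 3 cKO arrays lie above all controls for the classical miRNA targets, the miRNA host transcripts and the splicing-related genes, while activity-induced genes are lowest in replicate 1 of both groups and striatal genes highest in control replicate 3.

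Of 24 oligodendrocyte genes 1 was higher at an unadjusted p under 0.05, Car2, a carbonic anhydrase, at 0.21 ± 0.10, and the median was -0.02. For 25 genes of endothelium and mural cells it was 0.07 (0.01 after centring) with 0 at an unadjusted p under 0.05, and for 12 oligodendrocyte precursor genes 0.05 (just below zero after centring) with 0. Of 79 genes of oxidative phosphorylation, 54 were lower and 19 lay apart downward, where 7.46% of all genes did; the median was -0.06 and 1 passed an unadjusted p of 0.05, Ndufc1 of respiratory complex I, at -0.42 ± 0.18. Of 45 ribosomal protein genes 7 lay apart downward, with a median of -0.01. Splicing-related genes known for retained introns had a median of 0.24, with 12 of 34 apart upward, where 10% of all genes were, and 3 higher at an unadjusted p under 0.05, where 2.93% of all genes were. Their median was -0.44 at 4 weeks, and at 8 weeks it was 0.15 without control replicate 3 and 0.03 with the brightest probe set of each gene in place of the most variable. Nuclear long noncoding RNAs had a median of 0.17, with 5 of 12 apart upward and 2 downward and 0 at an unadjusted p under 0.05, and the median was 0.03 without cKO replicate 2. Both lists were kept as signs of RNA quality, and their part in the other results was not tested.

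Of 17 p53 and stress genes 3 were higher and 0 lower at an unadjusted p under 0.05, where 2.93% and 1.81% of all genes were. The median of the 17 was 0.02 (-0.04 after centring). Mdm2, the ubiquitin ligase that degrades p53, read 5.62, 5.73 and 5.64 in cKO against 5.46, 4.94 and 4.97 in control mice, a difference of 0.54 ± 0.16. Its other probe set differed by 0.00, and that of Sesn2, a stress-induced sestrin at 0.68 ± 0.24, by -0.13. Acly, the lyase that makes acetyl-CoA for lipid synthesis, read 9.11, 8.94 and 9.15 against 9.48, 9.55 and 9.58, all below the controls, and differed by -0.47 ± 0.18. Its other probe sets differed by -0.19 and 0.06. Ppara, a nuclear receptor of fatty acid use, differed by 0.31 ± 0.11, and on its other probe sets by -0.05 and 0.19. Of 20 cholesterol genes 14 were lower, with 0 at an unadjusted p under 0.05 and a median of -0.12. Of 18 clock genes 5 lay apart upward and 0 downward, where 10% and 7.46% of all genes did. The median of 0.25 was 0.12 without cKO replicate 2, 0.08 with the actin covariate and 0.06 with the brightest probe set of each gene. Among the 18, 2 were higher at an unadjusted p under 0.05, where 2.93% of all genes were. They were Bhlhe41 and Nr1d1, repressors in the clock loop, at 0.39 ± 0.16 and 0.29 ± 0.13. Hif3a, a gene that glucocorticoids induce, differed by -0.46 ± 0.14 on a dim probe set with means of 3.91 in cKO and 4.38 in control mice. Its other probe sets differed by -0.06 and -0.01.

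The study singled out genes of feeding and energy balance on arrays of this series that include these samples, so their list is not independent evidence. Of the 18 tested, 0 passed an unadjusted p of 0.05 at 8 weeks, where 4.74% of all genes did. At 4 weeks 9 were called higher and 2 lower, where 5.22% of all genes were called. The study named these genes for their change at 4 weeks, which by itself favours more calls then than at 8 weeks. The median was 0.13 at 8 weeks (0.06 without cKO replicate 2) against 0.43 at 4 weeks. Ntsr1, a neurotensin receptor, read 5.73, 5.99 and 5.63 in cKO against 5.74, 5.58 and 5.17 in control mice, a difference of 0.29 ± 0.14 at 8 weeks and 0.50 at 4 weeks. Nts, the neurotensin peptide, differed by 0.39 ± 0.40 against 1.32 at 4 weeks, and Bmp6, a BMP ligand, by 0.21 ± 0.17 against 0.84. Nlk, a kinase of WNT signalling, read 7.45, 6.09 and 7.09 against 7.54, 7.74 and 7.69. All cKO arrays were below the controls there, but the difference of -0.78 ± 0.45 was -0.38 without cKO replicate 2. Brighter probe sets of Nlk differed by 0.41 and -0.06. Hsp90aa1, a heat shock protein, differed by 0.43 ± 0.39 at 8 weeks and -1.23 at 4 weeks. Its probe sets ran from -0.26 to 0.43 at 8 weeks. Lepr, the leptin receptor, differed by 0.00 ± 0.21, a value whose sign turned with centring.

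The comparison with 4 weeks, in other mice, showed how many cortical differences were seen at both times. At 4 weeks limma called 769 genes (5.22%). Of the 625 called higher, 462 had a higher mean at 8 weeks, 31 of them at an unadjusted p under 0.05, and their median went from 0.49 to 0.08, or to 0.03 without cKO replicate 2. Of the 144 called lower, 76 had a higher and 68 a lower mean at 8 weeks, and the median went from -0.69 to 0.02. Without cKO replicate 2 this 8-week median was 0.10, and with control replicate 3 left out it was -0.03. Of the 625 and the 144, 5.76% and 7.64% had an unadjusted p under 0.05 at 8 weeks, where 4.74% of all genes did. The median size of a difference over all genes was 0.20 at 4 weeks and 0.11 at 8 weeks. The test of the difference between the time points called 1 gene (0.00679%), with 1808 at an unadjusted p under 0.05 (12.3%). Of these 1808, 1601 had opposite signs at 4 and 8 weeks, which choice by a large difference between the time points favours by itself. At 8 weeks alone 257 of the 1808 had an unadjusted p under 0.05, and at 4 weeks 1192 did. The called gene was Perp, a membrane protein that p53 induces. It read 5.40, 5.47 and 5.39 in cKO against 5.56, 5.57 and 5.63 in control mice at 8 weeks, all lower, and differed by -0.17 ± 0.10 there and by 0.88 at 4 weeks. The difference between the 2 was -1.05 (limma, adjusted p = 0.0843), and it was not called after leaving out any 1 of the 8-week arrays (adjusted p 0.208 to 0.457).

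**Figure D3:**
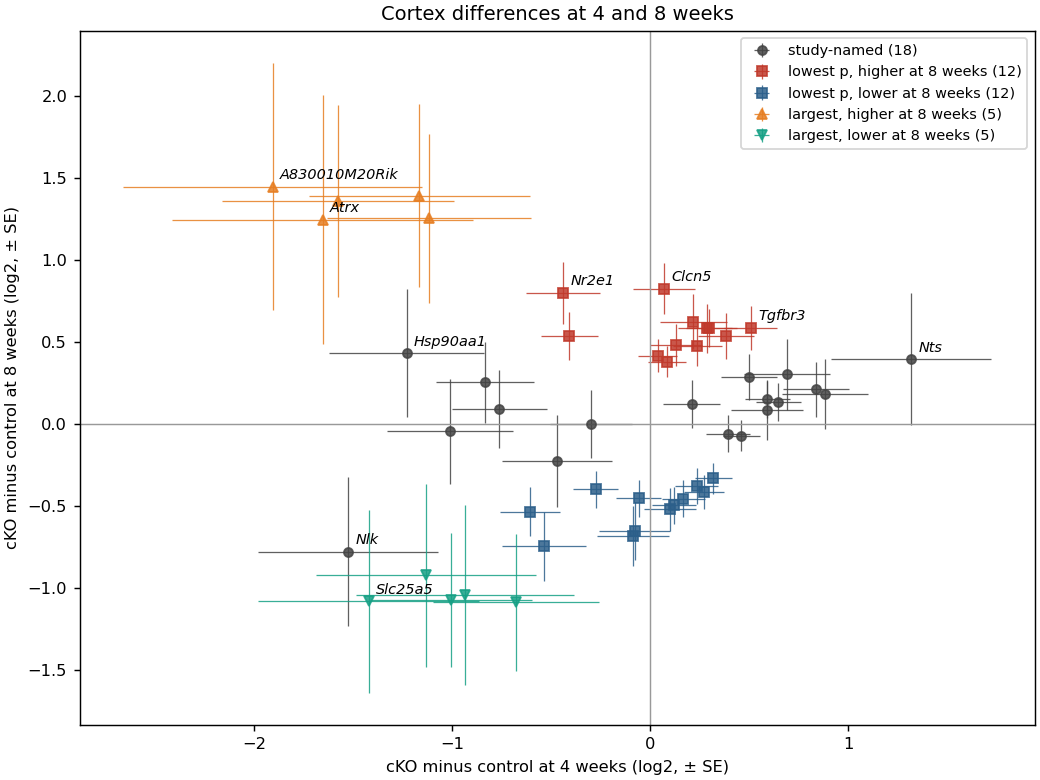
Difference between cKO and control cortex (log2) at 4 weeks on the horizontal axis and at 8 weeks on the vertical axis, with standard errors as bars, for the genes the study named and for the leading genes of 8 weeks. Among genes whose groups do not overlap, the 5 largest higher differences of 8 weeks (orange) lie below zero at 4 weeks, while the 5 largest lower ones (teal) are below zero at both times.

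The hypothalamus of the same 6 mice, on its own arrays, showed in which animals the microglial genes were high. The microglia list deviated by 0.15, 0.13 and -0.10 in the cKO and -0.01, -0.07 and -0.07 in the control cortex, and by 1.22, 0.84 and -0.44 and by -0.43, -0.66 and -0.46 in the hypothalamus. In both tissues replicates 1 and 2 of the cKO mice were above the controls and cKO replicate 3 was not. Interferon genes deviated by 0.16, 0.06 and -0.11 in the cKO cortex. In the hypothalamus they deviated by 1.50, 0.76 and -0.31 in the cKO and -0.55, -0.86 and -0.58 in the control mice, so that there cKO replicate 3 too was above the controls. The median difference of the microglia list was 0.08 in the cortex and 1.11 in the hypothalamus, that of activated microglia 0.11 and 1.01, and that of interferon genes 0.05 and 1.26.

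The difference between the tissues was tested in 14663 genes with the animal as a random block, and limma called 0 (0%), with 898 at an unadjusted p under 0.05 (6.12%). Without cKO replicate 3 in both tissues it called 242 genes, 202 of them with the lower difference in the cortex. Of the 242, 58 were in the microglia, activated microglia or interferon lists, which held 24, 22 and 30 of the 14663 genes. Replicate 3 was the cKO mouse lowest for these lists in the hypothalamus or the cortex. Without cKO replicate 1 or 2 in both tissues the test called 2 genes each, and without any 1 control 0. Ccl6 differed by 0.57 ± 0.20 in the cortex and 2.59 in the hypothalamus, Tyrobp by 0.40 and 1.73, and Gfap by 0.48 and 1.38. Vip, a peptide of interneurons and of the suprachiasmatic nucleus, had the lowest p of the test of the 2 tissues. It differed by -0.05 ± 0.15 in the cortex and -1.65 in the hypothalamus (limma, adjusted p = 0.569).

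**Figure D4:**
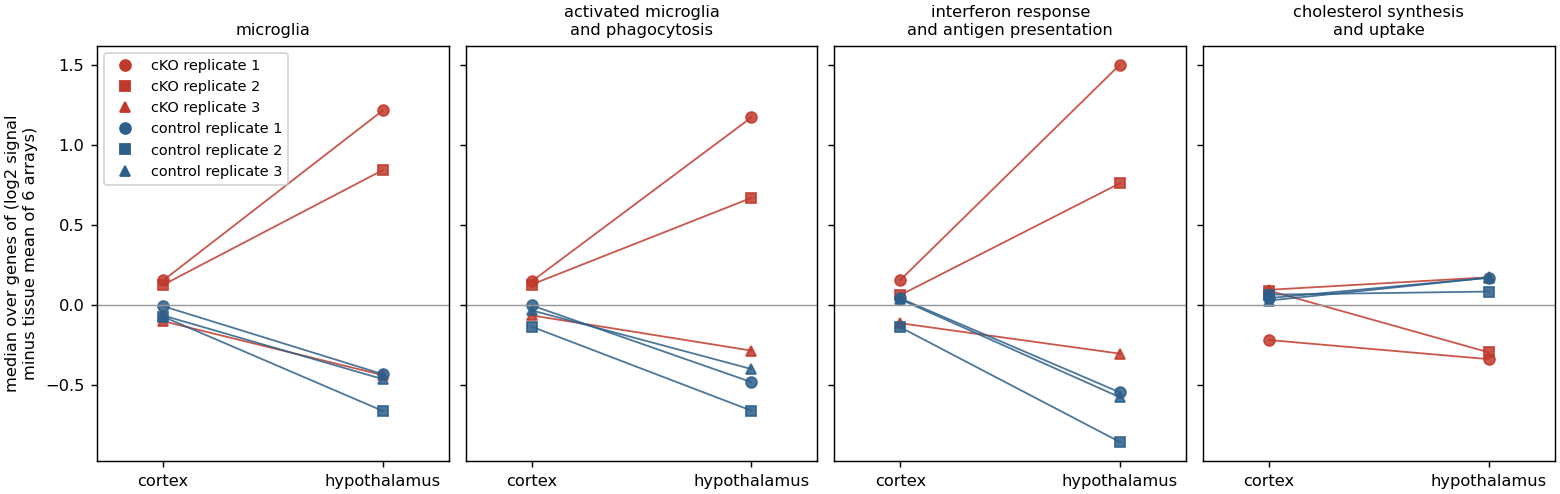
Microglia, activated microglia, interferon and other lists in the cortex and the hypothalamus of the same 6 mice, as the median over genes of the log2 signal minus the gene's mean over the 6 arrays of that tissue, with red marks for cKO and blue marks for control mice and the marker shape for the replicate. The microglia list reaches 1.22 in the hypothalamus of cKO replicate 1 and 0.15 in its cortex, and cKO replicate 3 lies with the controls in both tissues.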

How the data were processed

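Log2 signals after RMA were used as the authors deposited them; they normalized each tissue apart in the array maker's software, from an Affymetrix mouse expression array. No version of RMA was stated. Of 45101 probe sets, 34958 named 1 gene and 932 several. For each gene, or set of genes that a probe set named together, the probe set that varied most over the arrays was kept. Those whose third-highest value was under 4.3 were left out, which left 14722, of which 412 stood for several genes; lists and named genes used single-gene probe sets. The 12 cortex arrays of 4 and 8 weeks were fitted together with limma 3.58.1 (R 4.3.3), tested first on simulated data, with Benjamini-Hochberg adjustment and calls at an FDR of 15%. The cortex and hypothalamus were compared with the animal as a random block. Replicate numbers were not used to pair cKO with control mice. Correlations of deviations were 0.00342, 0.00202 and 0.214 for the same number and ran from -0.257 to 0.176 for unlike numbers. So few pairs cannot settle whether the numbers mark a pairing. The number of arrays limits the precision.

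Named were Dicer1 and Camk2a, the 12 lowest p and the 5 largest differences each way among genes whose groups did not overlap, genes the study names, up to 3 genes of each list with the lowest p and the 5 lowest p of each test of a difference; other list members named were chosen after their values were seen. The members and lists were chosen with earlier results of these data known. Alternatives changed the filter, probe set, scaling, variance model and samples.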

Additional observations from a re-analysis of the deposited data

Results flagged for a closer look

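The difference of Perp between the 2 time points was the 1 difference of that kind called by limma: cKO minus control was 0.88 at 4 weeks and -0.17 at 8 weeks, a change of -1.05 (adjusted p = 0.0843). Over the alternatives the adjusted p ran from 0.000542 to 0.498, and the change was negative in each.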

How the results depend on the processing

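At 8 weeks 0 genes were called under each alternative except with array weights (107) and without cKO replicate 3 (1, Clcn5), a range of 0 to 1 over arrays left out. With the replicate number as a block within each time point, a pairing the data do not settle, 0 were called at 8 weeks and 0 between time points. Genes at an unadjusted p under 0.05, 2.93% higher and 1.81% lower, became 3.25% and 1.84% over every probe set (854 and 483 of them against 431 and 267 genes), 1.92% and 3.27% with centred arrays, 7.41% and 3.86% in a fit of the 6 arrays alone, and 8.27% and 7.15% with array weights. The share lower was 2.93% by the Student t-test and 4.65% with the actin covariate. Leaving out arrays gave 0.516% to 6.87% higher and 0.808% to 4.20% lower. The share was 0.869% higher and 1.04% lower without cKO replicate 2 and 1.19% and 1.05% without control replicate 3; leaving out that pair, chosen after seeing the data, gave the 0.516%. Groups that did not overlap, 10% higher and 7.46% lower, became 9.67% and 7.11% of every probe set (2541 and 1867), 7.50% higher and 12% lower when centred, and 10% to 18.4% higher and 7.46% to 21.8% lower without arrays. Fewer arrays of 8 weeks make such groups more frequent by themselves, so shares without them cannot be set against those of 3 against 3. Between time points 1 gene was called; this was 0 at an FDR of 5%, with a filter at 6, with an intensity trend in the variance, also when robust, and 7452 with array weights. Leaving out arrays gave 0 to 7187, with 1922 without 4-week cKO replicate 3 alone and 7187 without it, 4-week control replicate 3 and 8-week cKO replicate 2. Between tissues the range was 0 to 242, the latter without cKO replicate 3. For the 166 named genes, 182 of 4447 values moved beyond the replicate spread and 85 changed sign. Many of the 4447 could not move, because changes to the variance model or the 4-week arrays leave the 8-week difference as it was. The share that moved is therefore no measure of stability. With the brightest probe set of each gene 67 of the 166 moved and 32 changed sign, and with the actin covariate 51 moved and 11 changed sign. The cause was not tested. Genes with dim signals, near the filter at 4.3, are the least certain.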

Other observations

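Some gene groups gave small counts at 8 weeks. Of 19 genes of neural stem cells and newborn neurons, 8 had a higher mean, 3 were higher at an unadjusted p under 0.05 and 0 lower. Over all genes 55.3% had a higher mean, and 2.93% were higher and 1.81% lower at that p. The median of the 19 was -0.06. Hes5, a target of Notch signalling, read 7.28, 7.27 and 6.48 in cKO against 6.41, 6.61 and 6.32 in control mice, a difference of 0.56 ± 0.21 with cKO replicate 3 within the controls. Ccnd2, a cyclin of dividing precursors, read 6.01, 5.50 and 4.85 against 4.85, 4.85 and 4.52, a difference of 0.71 ± 0.26, and its 6 probe sets differed by 0.66 to 0.78. Sox11, a factor of newborn neurons, differed by 0.71 ± 0.30 on 1 probe set and by as little as 0.10 on another.

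Of 36 potassium channel genes 18 were higher and 18 lower. Kcnj3, a channel opened by G proteins, differed by -0.42 ± 0.16 (probe sets -0.42 to 0.24) and was the 1 gene that passed an unadjusted p of 0.05. Of 25 heat shock genes and 26 feeding peptide genes 0 did, with medians of -0.02 and -0.01. Markers of the hypothalamus (13 genes, median 0.04, or -0.01 after centring) and of the thalamus (11 genes, -0.02) also had 0. Of 13 hippocampus markers 1 passed, Tdo2, tryptophan dioxygenase, at 0.54 ± 0.22 against 1.20 at 4 weeks. Hba-a2, an alpha globin, differed by 0.28 ± 0.11 while 4 of the 5 blood genes were lower. Ependymal genes were lower in 10 of 13, with 0 at an unadjusted p under 0.05. Among 4513 probe sets with no gene named, limma called 0 at 8 weeks, with 191 at an unadjusted p under 0.05 (4.23%).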
